A study of Mus musculus with 2 samples.

Results

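Chromatin accessibility was read at 7 endoderm regulators in mouse embryonic stem cells (ESCs) with and without Uhrf1. The genes are Gata4, Gata6, Sox17, Sox7, Foxa2, Hnf4a and Dab2, and each was taken with 50 kb on either side. These windows held 57 of the 71914 peaks of wild type (WT) ESCs and 47 of the 61640 peaks of Uhrf1 KO ESCs. Both samples were undifferentiated E14 mESC, one labelled with the genotype WT and the other Uhrf1 KO, and each genotype had 1 library. The cells were grown with serum and leukemia inhibitory factor on plates coated with gelatin or with mouse embryonic fibroblasts (MEF), and 50000 cells per sample were lysed and treated with the Nextera transposase, which inserts adapters where DNA is open (ATAC-seq). Which coating was used for which sample, and whether the Uhrf1 KO line was 1 clone, are not given in the sources used here. Peaks were 101 bp wide and carried no read number, so the number of fragments behind a peak is unknown and differences between the lists have no replicate check.

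Endoderm is made more than once in the mouse embryo. Primitive endoderm splits from the pluripotent epiblast in the blastocyst and forms the visceral and parietal yolk sac lining, and definitive endoderm arises later, at gastrulation, and forms the gut and its glands. Gata6 acts at the top of the primitive endoderm programme, Gata4, Sox17 and Sox7 follow it, and Dab2 encodes an endocytic adaptor needed for the visceral layer. Foxa2 opens chromatin for other factors in definitive endoderm, where Sox17 acts too, and Hnf4a, a nuclear receptor, drives the genes of visceral endoderm and liver. In ESCs these genes are held in a silent or weakly transcribed state, often under polycomb. Uhrf1 binds hemimethylated CpG sites behind the replication fork and brings in the maintenance methyltransferase Dnmt1.

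Promoters of pluripotency genes were open in both lists. All 7 pluripotency genes examined (Pou5f1, Sox2, Nanog, Klf4, Esrrb, Zfp42 and Tbx3) had a promoter peak in both. Of 6 fibroblast genes examined because of the MEF plates, Col1a1, Col1a2 and Thy1 had a promoter peak in both lists. Twist2, Postn and S100a4 had one in neither. Of all coding genes, 63.7% had a promoter peak in WT and 58.8% in KO. The 6 windows held 36 peaks in each list. Whether feeder DNA contributed to the peaks was not tested. Uhrf1 itself had 1 peak inside the gene in WT and 2 in Uhrf1 KO, each with a partner in the other list. Peak positions say nothing about the deleted part of the gene, so the genotype labels were not checked by these data. The chromosomes of the 7 genes had KO to WT peak ratios between 0.955 and 1.08 times that of the whole lists.

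The 7 endoderm regulators together had a KO to WT ratio of peaks near that of the whole lists, and the genes differed in direction. Counting error alone (exact Poisson, 95%) put the 57 WT peaks between 43.2 and 73.9 and the 47 KO peaks between 34.5 and 62.5. They gave a ratio of 0.825 (0.548 to 1.23), beside 0.857 for the whole lists. Of these peaks, 16 WT and 9 KO were nearer to a start of another coding gene. The 41 WT and 38 KO peaks nearest to a member gave a ratio of 0.927. Sox17 held 15 WT and 21 KO peaks, the most of any member in both lists. Gata4 had 12 WT and 5 KO peaks, Hnf4a 11 and 5, and Foxa2 9 and 6. The numbers were small and nearly level at Gata6 (3 WT and 4 KO) and Dab2 (4 and 5), and Sox7 had 3 and 1. The interval of every single gene's ratio spanned 1. Many peaks overlapped or adjoined, so the numbers count some open sites more than once and the intervals treat such peaks as separate. With neighbouring peaks merged, Gata4 had 7 WT and 4 KO regions, Hnf4a 8 and 4, Foxa2 8 and 5, Sox17 10 and 15, and Gata6 1 and 3. Without Sox17, left out after its values were seen, the other 6 genes had 42 WT and 26 KO peaks, a ratio of 0.619.

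**Figure D1:**
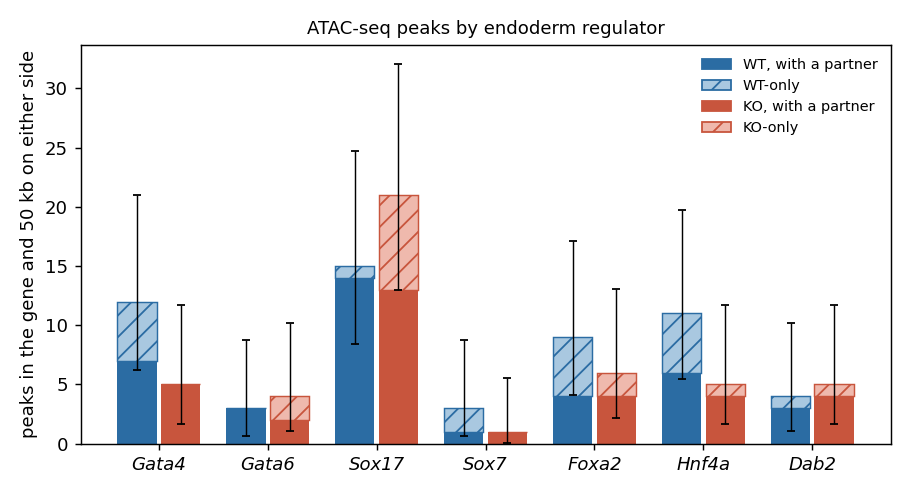
Number of WT (blue) and Uhrf1 KO (red) peaks in each gene and 50 kb on either side, with peaks that have a partner in the other list filled and those without one hatched. Lines are 95% exact Poisson intervals of the totals, for counting error only. Sox17 has 8 KO-only peaks, and Gata4, Foxa2 and Hnf4a have 5 WT-only peaks each.

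Set beside all protein-coding genes, a lower peak number in KO was common and a number of KO-only peaks as high as at Sox17 was rare. With 1 added to each number, the KO to WT ratio was at or below 1/1.5 at Gata4 (0.462), Sox7 (0.500) and Hnf4a (0.500), 3 of 7 genes, where 28.8% of 21101 coding genes with a peak in the window were as low. No member reached 1.5 or more, which 9.45% of coding genes did. The highest was Sox17 at 1.38, followed by Gata6 at 1.25 and Dab2 at 1.20, and Foxa2 stood at 0.700, beside a median of 0.850 over the coding genes. More KO than WT peaks, as seen at Sox17, Gata6 and Dab2, were present at 23.3% of all 22270 coding genes. At least 8 KO-only peaks, the number at Sox17, were found in the windows of 44 coding genes, or 0.198%. At least 5 WT-only peaks, the number at Gata4, Foxa2 and Hnf4a, were found at 16.0%.

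**Figure D2:**
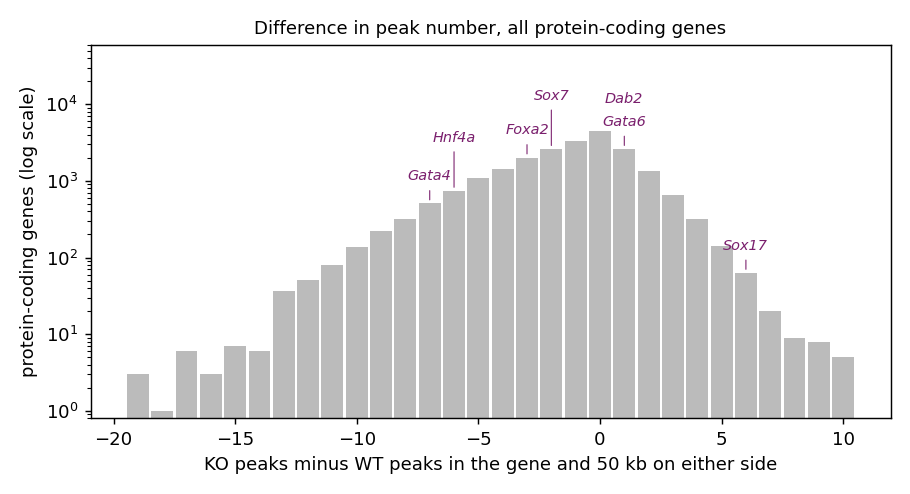
KO minus WT peak number in the gene and 50 kb on either side for all protein-coding genes (grey bars, log scale), with the 7 endoderm regulators marked. Gata4 (12 WT and 5 KO peaks) and Hnf4a (11 and 5) lie left of most genes and Sox17 (15 and 21) lies in the right tail, and 5 genes beyond a difference of 20 are not drawn. At Gata4 6 WT and 3 KO peaks, and at Hnf4a 9 and 5, were nearer to another coding gene.

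A peak was called shared when the other list had a peak within 100 bp of its ends, and WT-only or KO-only otherwise. Of the member peaks, 19 of 57 were WT-only (33.3%, 95% exact binomial interval 21.4 to 47.1), close to the 32.1% of the whole WT list. On the KO side 14 of 47 were KO-only (29.8%, 17.3 to 44.9), beside 24.6% of the whole KO list. Sox17 held 8 of these 14 and decided the direction: without it, left out after its values were seen, 23.1% of the KO peaks were KO-only and 42.9% of the WT peaks were WT-only. The KO-only peaks were far from the genes. All 14 lay more than 10 kb from every annotated start of their member gene and none lay inside a member gene. Within the genes and 10 kb on either side, 0 of 25 KO peaks were KO-only, beside 19.1% of the KO peaks within 10 kb of any coding gene. The interval allows up to 13.7%, but it treats the 25 peaks as separate, and 10 of them lay close together inside Sox17. Whether the share is lower at the members was not tested. WT-only peaks were found at all distances, and in the same 10 kb windows 11 of 39 WT peaks were WT-only (28.2%, beside 30.8% for all coding genes). By distance to any coding start, the shares were near their backgrounds. Within 2 kb, 0 of 17 KO peaks (up to 19.5%, beside 8.91% of all such KO peaks) and 5 of 25 WT peaks (interval 6.83 to 40.7%, beside 25.6%) had no partner. Beyond 2 kb the shares were 14 of 30 in KO (46.7%, 28.3 to 65.7, beside 37.5%) and 14 of 32 in WT (43.8%, 26.4 to 62.3, beside 38.7%). Of the 19 WT-only peaks, 5 were within 2 kb of a member start, 6 were inside a member gene and 9 were beyond 10 kb. By annotation, 18 WT and 22 KO peaks were intergenic, 22 and 16 intronic, and 10 and 6 in coding exons. The 31 bp at the centre of the peak occurred once in the genome for 101 of the 104 peaks. Only exact copies were counted, so a peak in a repeat whose copies differ in sequence can be among these 101.

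**Figure D3:**
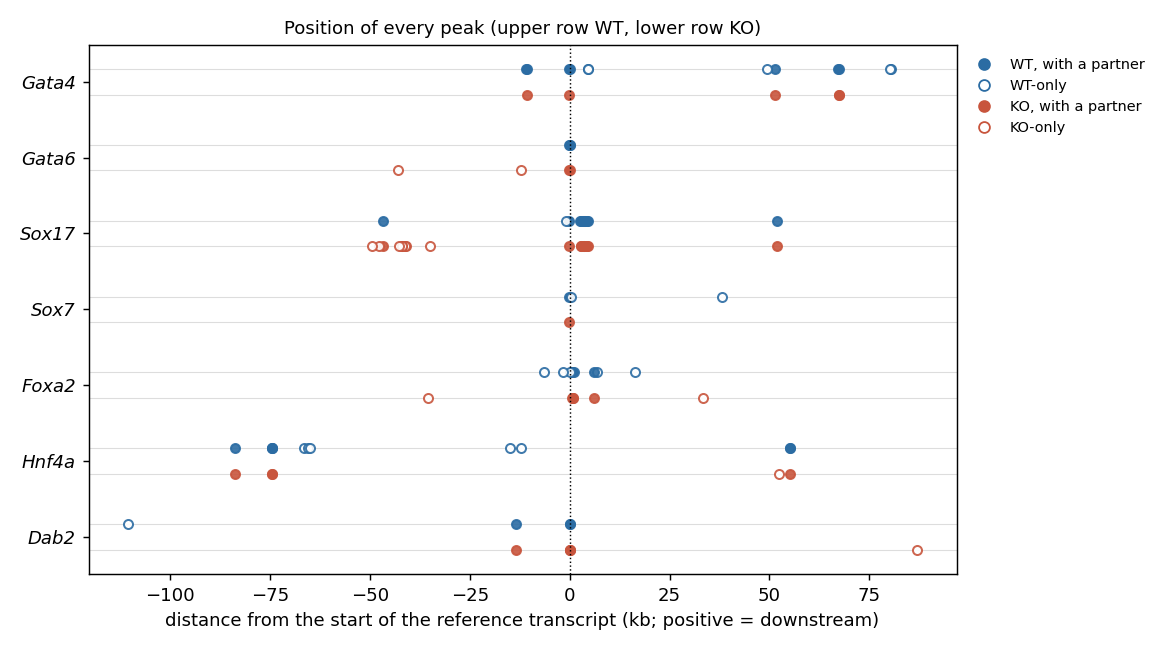
Position of all 57 WT peaks (blue, upper row of each gene) and 47 KO peaks (red, lower row) by distance in kb from the start of the gene's reference transcript, positive downstream. Filled circles have a partner in the other list and open circles have none. Open red circles (KO-only, 14) lie away from the dotted start line, while open blue circles (WT-only, 19) lie both near and far.

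Gata6, the top factor of the primitive endoderm programme, was marked at its start alone in WT. The 3 WT peaks on chromosome 18 of mm9 lay at 138, 61 and 0 bp from the annotated start, on or just upstream of it. The KO list had peaks at 140 and 15 bp upstream, each with a WT partner, so that the promoter was shared by the lists. The KO list added 2 peaks that WT lacked, both upstream and intergenic. The nearer lay at chr18:11040130-11040230, 12328 bp from the start, and the other at chr18:11009453-11009553, 43005 bp from it. No sequence is shown for Gata6.

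The promoters of the members were open in ESCs of both genotypes, with Hnf4a the exception. A peak centred within 2 kb of an annotated transcript start was present at 7 of 7 genes in WT and 6 of 7 in Uhrf1 KO, where 63.7% and 58.8% of all coding genes had one. The difference rests on 1 WT peak at Hnf4a, and the number in its name was high (percentile 88.6 of its list and chromosome). Within 1 kb of a start 6 genes had a peak in each list, and at the single outermost start of the gene model 4 in each. Among all coding genes, 6.64% had such a peak in WT and none in KO, as Hnf4a did. CpG-rich promoters were marked more often: of 10295 coding genes whose 1000 bp round the start had an observed to expected CpG ratio of at least 0.6, 96.6% had a WT and 90.3% a KO promoter peak. By this ratio Dab2 (0.831), Sox7 (0.768), Gata4 (0.663) and Gata6 (0.657) were CpG-rich, and Foxa2 (0.570), Sox17 (0.413) and Hnf4a (0.304) were below the limit.

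Gata4, a zinc finger factor of primitive endoderm and heart, had a promoter and an intronic site shared by the lists and an exonic site in WT alone. At the start of Gata4-002 the WT list had peaks centred 1 and 57 bp upstream and the KO list had 1 peak, 54 bp upstream. A shared site lay in the intron 10745 bp upstream of that start, inside transcripts that begin further out, with WT peaks at chr14:63874803-63874903 and chr14:63874881-63874981 and a KO peak at chr14:63874811-63874911. The WT-only peaks of the gene were an overlapping pair in a coding exon, 4481 and 4533 bp downstream of the start of Gata4-001. The other 6 WT and 3 KO peaks of the window were nearer to Fdft1 or Neil2 than to Gata4, and 3 of the 5 WT-only peaks were among them. Outer starts of Gata4 at 63889961 and 63890529 had no peak within 15 kb in either list. The sequences of the promoter peak, of the shared intronic site and of the WT-only exonic site are printed, on the plus strand of NCBIM37 (mm9), to show that all 3 are dense in CpG (capitals), with 13, 17 and 13 CpG in 101 bp.
Gata4 WT chr14:63864115-63864215: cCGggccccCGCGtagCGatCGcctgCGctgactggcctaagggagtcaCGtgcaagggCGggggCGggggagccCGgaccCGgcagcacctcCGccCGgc
Gata4 WT chr14:63874803-63874903: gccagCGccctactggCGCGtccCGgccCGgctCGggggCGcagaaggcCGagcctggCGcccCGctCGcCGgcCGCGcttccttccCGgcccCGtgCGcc
Gata4 WT chr14:63859554-63859654: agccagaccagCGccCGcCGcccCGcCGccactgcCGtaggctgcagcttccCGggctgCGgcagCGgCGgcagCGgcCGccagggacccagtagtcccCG

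Sox7, an F-group Sox factor of primitive endoderm and vessels, was covered by a single KO peak. This peak lay 94 bp upstream of the start of Sox7, and its WT partner lay 178 bp upstream. WT had a further peak at chr14:64562763-64562863, in the coding exon 302 bp downstream of the start, and another at chr14:64600574-64600674, in an intron of the neighbour 4930578I06Rik. Neither had a KO partner. The promoter peaks of the 2 lists were offset by 84 bp, so that the end of the WT peak overlaps the beginning of the KO peak, as their plus-strand sequences show (CpG in capitals, 9 in the WT peak and 14 in the KO peak).
Sox7 WT chr14:64562283-64562383: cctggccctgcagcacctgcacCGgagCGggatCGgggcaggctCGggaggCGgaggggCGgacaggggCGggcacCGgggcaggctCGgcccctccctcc
Sox7 KO chr14:64562367-64562467: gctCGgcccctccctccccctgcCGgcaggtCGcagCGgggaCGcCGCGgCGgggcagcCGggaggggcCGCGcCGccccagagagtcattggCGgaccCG

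Foxa2, the forkhead factor of definitive endoderm, node and floor plate, kept a shared core and had different single peaks round it in each list. The shared core lay between the inner starts Foxa2-002 and Foxa2-004, with WT peaks centred 81, 342 and 417 bp and KO peaks 154, 210 and 423 bp upstream of Foxa2-002. A shared site 4506 bp (WT) and 4591 bp (KO) downstream of Foxa2-003 was at chr2:147866644-147866744 in WT and chr2:147866559-147866659 in KO. The WT-only peaks numbered 5. They were centred 10 bp downstream of the start of Foxa2-004, 1684 and 6510 bp upstream of the start of Foxa2-001, and 5300 and 14900 bp downstream of Foxa2-003. The KO-only peaks were both beyond 30 kb, 31824 bp downstream of Foxa2-003 and 35453 bp upstream of Foxa2-001. The lowest-numbered WT peak of the core is printed with its CpG in capitals, followed by 2 WT-only upstream peaks in which capitals mark a motif instead, the CTCF core AGGGGGCGC, read on the other strand as GCGCCCCCT, in the peak 1684 bp upstream and the SOX motif AACAATG, read on the other strand as CATTGTT, in the peak 6510 bp upstream.
Foxa2 WT chr2:147872051-147872151: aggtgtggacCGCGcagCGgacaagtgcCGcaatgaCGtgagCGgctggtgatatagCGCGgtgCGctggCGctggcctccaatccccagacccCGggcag
Foxa2 WT chr2:147874339-147874439: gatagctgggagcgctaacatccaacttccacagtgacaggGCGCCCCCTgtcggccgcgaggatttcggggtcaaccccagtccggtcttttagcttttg
Foxa2 WT chr2:147879165-147879265: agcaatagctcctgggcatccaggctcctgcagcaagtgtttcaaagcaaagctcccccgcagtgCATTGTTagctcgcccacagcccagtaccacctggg

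Hnf4a, the nuclear receptor of visceral endoderm and liver, had no KO peak inside the gene. Its 2 WT peaks there were intronic and WT-only, 4908 and 1935 bp upstream of the internal start at 163362755, and the latter is the promoter peak counted for WT. Neither the outer start at 163332544 nor the start of Hnf4a-001 at 163372923 had a peak within 2 kb in either list. Within 1 kb of a start Hnf4a had no WT peak either, so its difference rests on this site alone. The other 9 WT and all 5 KO peaks of the window were nearer to Fitm2, 2310001K24Rik or Ttpal. A WT-only group of 3 peaks lay between chr2:163306257 and chr2:163308056, upstream of the outer start and on the side of Fitm2. The KO-only peak at chr2:163425132-163425232 was 2868 bp from a start of Ttpal. The WT-only promoter peak is printed with its 7 CpG in capitals.
Hnf4a WT chr2:163360770-163360870: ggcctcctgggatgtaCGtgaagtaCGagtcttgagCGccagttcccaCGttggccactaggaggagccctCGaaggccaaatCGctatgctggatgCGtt

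Dab2, the endocytic adaptor, had matching peaks in both genotypes. They lay at the inner starts near 6336598, with WT peaks centred 1 bp downstream of Dab2-001 and 7 bp upstream of Dab2-006, and KO peaks 6 bp upstream of Dab2-001, 56 bp upstream of the start at 6336748 and 13 bp upstream of Dab2-006. A further shared peak was in the intron 13445 bp upstream in WT and 13440 bp upstream in KO. The outer start at 6249788 had no peak within 2 kb in either list. The WT-only peak at chr15:6225954-6226054 has a centre with 73 exact copies in the genome, so its position is uncertain, and the KO-only peak at chr15:6423504-6423604 lay in an intron of C9. The intronic peak, printed on the plus strand, has 0 CpG. Its centre was found in 1 exact copy, but copies that differ in sequence were not counted. Its position can therefore be uncertain too.
Dab2 WT chr15:6323103-6323203: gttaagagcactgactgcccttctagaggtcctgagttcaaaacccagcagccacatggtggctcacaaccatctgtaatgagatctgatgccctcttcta

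Sox17, the F-group Sox factor shared by primitive and definitive endoderm, had 2 separate groups of peaks. The first covered the body of the gene, from 2637 to 4575 bp downstream of the inner start (4486444) in WT and from 2646 to 4628 bp in KO, with 11 WT and 10 KO peaks inside the gene, every one of them shared. At the start, WT had a peak 135 bp and KO a peak 200 bp upstream of the outer start (4486494), which are partners, and WT alone had a peak 992 bp upstream. The second group lay 35 to 50 kb upstream and was found almost only in Uhrf1 KO. In 14578 bp (chr1:4521537-4536114) it held 9 KO peaks, of which 8 were KO-only, and 1 WT peak. Counted over all chromosomes in stretches of this length that do not overlap, 2 had 8 or more KO-only peaks, this group included. The group was singled out after its values were seen, and the length of the stretches was set by its own first and last peak. The count therefore describes the group and cannot measure how unusual it is.

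**Figure D4:**
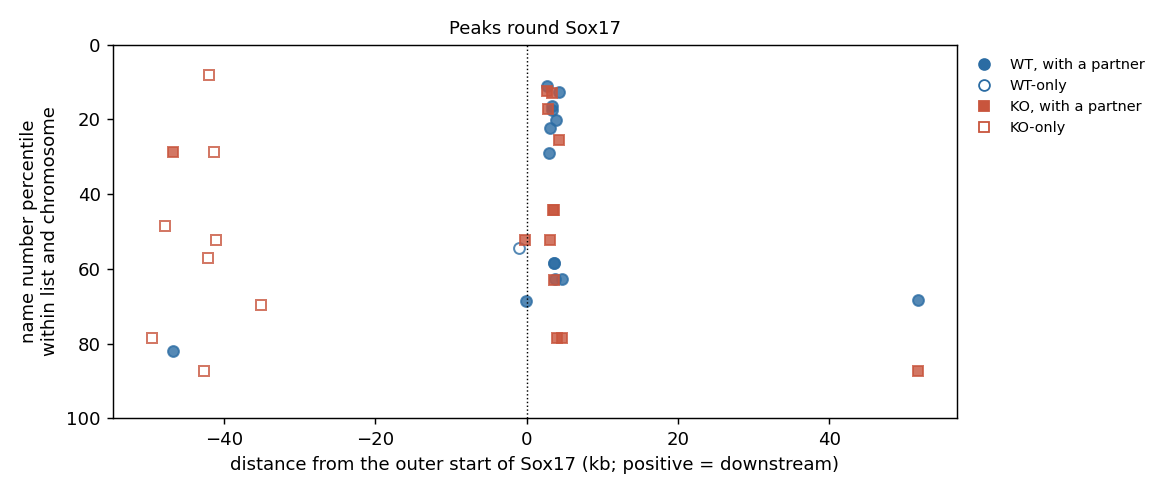
Peaks round Sox17 by distance in kb from the outer start of Sox17 (positive downstream) and by the percentile of the number in the peak's name within its list and chromosome, with low numbers at the top. WT peaks are blue circles and KO peaks red squares, filled where the other list has a partner. The gene body group is filled in both colours, and the group 35 to 50 kb upstream has 8 open red squares.

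The 8 KO-only peaks were centred 35093, 41115, 41333, 41949, 42120, 42702, 47772 and 49570 bp upstream of the outer start. All were intergenic with Sox17 as the nearest coding start, and the 31 bp at the centre of each occurred once in the genome. A further KO-only peak lay just outside the window, at chr1:4536531-4536631. Beyond it, from chr1:4551048-4551148 on, the next peaks were again shared. The shared peak of the group lay 46706 bp upstream in KO and 46699 bp in WT. Peak names end in a number whose meaning is not given in the sources used here. Shared peaks had lower numbers than peaks of 1 list, with medians over the whole lists at percentile 35.8 against 73.9 in WT and 40.1 against 74.4 in KO. Within the group the KO-only peak 41949 bp upstream had percentile 8.21, below the lowest of the gene body (11.2 in WT and 12.3 in KO), and the KO-only peaks ran up to 87.3. Their GC content over the central 200 bp was 37.5 to 56.5% (median 47.0%), below most of the gene body, where KO peaks had 52.5 to 73.0%. The following peaks, on the plus strand, set the gene body and the start beside the upstream group, with CpG in capitals. The gene body peak has 13 CpG, the KO promoter peak 3, the WT-only peak 7, the lowest-numbered KO-only peak 2 and the shared upstream peak 0.
Sox17 WT chr1:4482146-4482246: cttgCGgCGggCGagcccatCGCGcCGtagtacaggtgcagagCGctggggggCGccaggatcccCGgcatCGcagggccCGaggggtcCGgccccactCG
Sox17 KO chr1:4486644-4486744: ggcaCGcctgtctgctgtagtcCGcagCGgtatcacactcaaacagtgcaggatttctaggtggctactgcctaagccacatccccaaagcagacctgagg
Sox17 WT chr1:4487436-4487536: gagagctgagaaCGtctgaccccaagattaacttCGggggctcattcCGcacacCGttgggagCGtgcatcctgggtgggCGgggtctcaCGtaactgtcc
Sox17 KO chr1:4528393-4528493: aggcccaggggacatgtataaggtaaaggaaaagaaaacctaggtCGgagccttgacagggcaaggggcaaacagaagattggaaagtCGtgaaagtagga
Sox17 KO chr1:4533150-4533250: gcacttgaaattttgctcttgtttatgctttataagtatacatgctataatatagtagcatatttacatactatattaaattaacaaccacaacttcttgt

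The KO-only peak 42120 bp upstream held 2 of the motifs searched within its 101 bp, the GATA motif AGATAA and the HNF4 motif CAAAGTCCA (as TGGACTTTG on the plus strand), and a SOX motif in the flanking bases of its central 200 bp. The AGATAA and HNF4 matches are in capitals in its plus-strand sequence.
Sox17 KO chr1:4528564-4528664: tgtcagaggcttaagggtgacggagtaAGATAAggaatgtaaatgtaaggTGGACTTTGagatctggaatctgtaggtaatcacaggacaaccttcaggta

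Motifs of endoderm factors were found in a few peaks of the 7 genes, and no share could be told from that of the whole list. Over the central 200 bp and on both strands, AGATAA, bound by factors of the GATA family, was in 0 of 57 WT peaks (beside 3.87% of all WT peaks) and 3 of 47 KO peaks (6.38%, beside 5.82% of all KO peaks). The variant TGATAA was in 2 WT peaks (3.51%, beside 2.98%) and 5 KO peaks (10.6%, interval 3.55 to 23.1, beside 4.64%). In both lists 1 of these TGATAA peaks was a repeated sequence 51716 bp (WT) and 51712 bp (KO) downstream of the inner start of Sox17. AACAATG, for SOX factors, was in 1 WT peak (1.75%, beside 2.11%) and 3 KO peaks (6.38%, beside 2.83%). CAAAGTCCA, for HNF4 factors, was in 1 peak of each list (1.75% and 2.13%, beside 0.176% of all WT and 0.181% of all KO peaks), the WT example being a Gata4 promoter peak. GTAAACA for forkhead factors and the octamer ATGCAAAT of Oct4 were in 0 peaks of either list, where 1.93% and 1.58% of all WT peaks and 2.66% and 1.95% of all KO peaks held them. The CTCF core AGGGGGCGC was in 2 peaks of each list (3.51% in WT, beside 2.29%, and 4.26% in KO, beside 1.75%). For all 7 motifs and both lists, the share of the whole list lay inside the interval of the members' share. Searched over the 101 bp as listed, TGATAA was in 1 WT and 1 KO peak, the SOX motif in 1 KO peak, the HNF4 motif in 0 WT peaks and the CTCF core in 0 KO peaks.

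KO-only peaks were poorer in GC and CpG than the other member peaks. The 14 KO-only peaks had a median GC content of 47.5% (range 37.5 to 56.5) and an observed to expected CpG ratio of 0.160 (0 to 0.339). The 33 shared KO peaks had medians of 65.0% and 0.715, and the 19 WT-only peaks had 60.5% and 0.597 (0.149 to 0.908). Without Sox17 the 6 other KO-only peaks had medians of 50.2% and 0.169. Distance from starts moves with this: KO-only peaks beyond 2 kb of any coding start in the whole list had medians of 48.5% and 0.183, near those of the members. WT-only peaks that far from starts had 54.0% and 0.278 in the whole list. The members' WT peaks beyond 2 kb had a median GC content of 60.8%, higher than the 53.5% of all such WT peaks, and the KO peaks 51.8%, beside 51.0%.

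**Figure D5:**
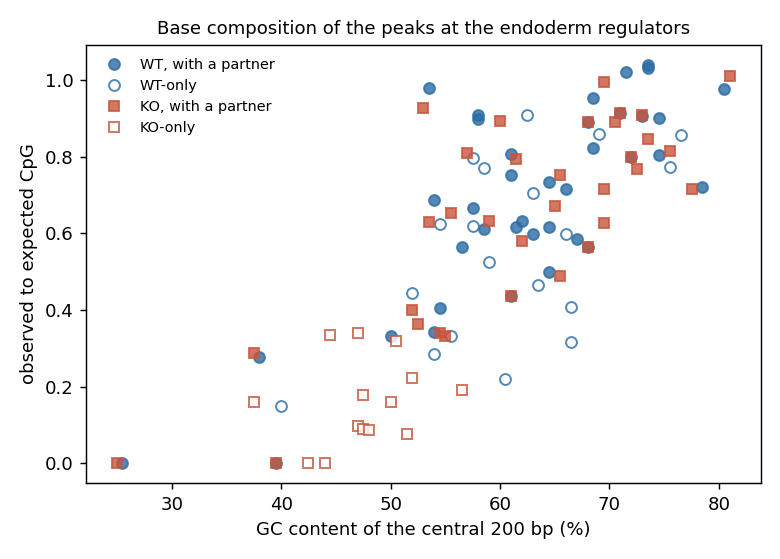
GC content of the central 200 bp (%) against observed to expected CpG for the 57 WT peaks (blue circles) and 47 KO peaks (red squares), filled where the other list has a partner. The 14 KO-only peaks lie at or below 56.5% GC and 0.339 CpG, where few WT-only peaks are found.

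Other endoderm genes, in lists that share no gene with the members, had fewer KO peaks as well. The 13 further endoderm transcription factors held 115 WT and 76 KO peaks, each counted once where windows overlap, a ratio of 0.661 (0.488 to 0.891). Of their windows 5 were at or below 1/1.5 and 0 at or above 1.5, beside 28.8% and 9.45% of coding genes with a peak. KO-only peaks were 7.89% of their KO peaks, beside 29.8% at the members and 24.6% in the whole list. A promoter peak was present in both lists at 9 of the 13, and Sox18 and Cdx2 were among those that had it in WT alone, as 6.64% of all coding genes did. Counted by list, 12 of the 13 had one in WT and 9 in KO, beside 63.7% and 58.8% of all coding genes. The 14 receptor and matrix genes of primitive endoderm held 226 and 162 peaks (0.717, 0.582 to 0.881), with a promoter peak in both lists at 12, and Amn had it in KO alone. Counted by list, 12 of the 14 had one in WT and 13 in KO, beside the same 63.7% and 58.8%. Fgfr2, a receptor for the FGF4 signal that favours primitive endoderm, held 114 and 71 of these peaks and weighed most on that ratio. The medians over all coding genes were 7 WT and 5 KO peaks. No interval was computed without Fgfr2, so that of the list rests largely on this 1 window.

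Later endoderm genes and other lineages gave the frame. The 12 secreted and transport genes of visceral endoderm held 54 and 46 peaks (0.852), with 7 promoters marked in neither list and Lefty1 in WT alone. Of the 12, 5 had a promoter peak in WT and 4 in KO, beside 63.7% and 58.8% of all coding genes. At the 8 definitive endoderm genes there were 68 and 54 peaks (0.794), and Krt8, Krt18 and Spink3 had a promoter peak in WT alone, beside 6.64% of all coding genes. Krt8 and Krt18 are neighbours on chromosome 15, each with 11 WT and 4 KO peaks in its window. Their windows overlap, so some of these peaks are the same and the genes are not separate examples. The 7 mesendoderm genes held 43 and 36 (0.837), with T (brachyury), Mesp1 and Evx1 marked at the promoter in WT alone, beside the same 6.64%. The 6 neuroectoderm genes found in the annotation held 71 and 49 (0.690), and the 7 pluripotency genes 91 and 70 (0.769). The intervals of the further transcription factors and of the receptor and matrix genes, the latter with Fgfr2 included, ended at 0.891 and 0.881. Both ends lay just above the 0.857 of the whole lists. The members' 0.825 (0.548 to 1.23) was not separated from any of them by its interval.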

How the data were processed

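WT and Uhrf1 KO peak positions, 1 library each, were used as deposited by the authors, with a score of 1 for every peak. Per the labels and the study's methods, the authors mapped reads to mm9 with Bowtie2 2.1.0 and kept fragments under 150 bp. HOMER 4.9.1 is named in the submitters' processing notes without a role, and the peak threshold is not given in the sources used here. Genes and starts came from GENCODE vM1 and sequence from NCBIM37, the same build as mm9. A peak belonged to a window by its middle. Windows were compared as (KO + 1)/(WT + 1). Intervals at 95% were exact Poisson or Clopper-Pearson, and no test was possible with 1 library per genotype. Name numbers were ranked within list and chromosome. All peaks within 2 kb of a member start are described, with those of 1 list that had the lowest numbers and, from other lists, genes with a promoter peak in 1 list, of which 1 is not reported here. Dab2 joins 2 gene models. The members and lists were chosen with earlier results of these data known. Code was tested on simulated data. Tools were Python 3.11.15, numpy 2.4.6, scipy 1.17.1, pysam 0.24.0, samtools 1.23.1, numba 0.67.0 and matplotlib 3.10.9.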

Additional observations from a re-analysis of the deposited data

How the results depend on the processing

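The limits of these lists are those of 1 library per genotype and peaks without read numbers. No paired analysis was possible because there is only 1 library on either side. The KO to WT ratio of the windows lay between 0.619 and 0.927 under all alternatives, always below 1, as was the 0.857 of the whole lists. The ratio of the whole lists was not recomputed under each setting, and with equal list lengths it is 1 by construction. With 10 kb on either side there were 25 KO peaks, and 0% of them were KO-only. With 100 kb there were 78 KO peaks. The lower 50% of name numbers left 29 WT and 22 KO peaks, 4 KO-only peaks and 0 WT peaks upstream of Sox17, and 3 of those KO-only peaks when matched against the whole WT list. In that setting 10.3% of WT peaks were WT-only. Requiring 50% of both regions to overlap gave 52.6% WT-only and 51.1% KO-only. Merging neighbouring peaks left 40 WT and 35 KO regions, a ratio of 0.875, with 42.5% WT-only and 37.1% KO-only. At the start of the gene model 4 members had a promoter peak in WT and 4 in KO. Leaving out Sox17, chosen after seeing the data, left 26 KO peaks, with 23.1% KO-only and 42.9% WT-only. The causes were not tested. A count was labelled near the reported value within a factor of 1.5, and a share or ratio when inside the interval of that value. These limits are wide. Values labelled near include 85 WT peaks with 100 kb and 39 with 10 kb, beside 57, and the ratio of 0.619 without Sox17, beside 0.825. By these limits 53 summary values and 64 values of single genes and motifs were near those reported. The other 13 summary values and 32 single values moved. Among the single values was the TGATAA count in KO, from 5 to 1 when the peak as listed was searched.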
